A study of Mus musculus with 19 samples.

Results

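The genes described here are members of the Bcl2 family, divided into anti-apoptotic members (Bcl2, Bcl2l1 and Mcl1) and pro-apoptotic members (Bax, Bak1, Bcl2l11, Bbc3, Pmaip1, Bid and Bad), followed in the mouse ovary over 6 stages of development. Of the 10 genes listed, 9 had at least 1 probe set that the platform annotation assigns to that gene alone, with 29 probe sets in all, out of 18193 genes and 45037 probe sets on the array. Bax had no such probe set and was not analysed here. The probe set of highest mean signal over the 18 ovary arrays stands for a gene that has several, with the others given beside it.

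All animals were wild-type CD-1 mice, an outbred strain. Ovaries were taken at gestation days 11, 12, 14, 16 and 18 (gd11 to gd18) and at postnatal day 2 (pnd2), with 3 arrays at each stage. RNA was carried through 2 rounds of amplification and hybridised to Affymetrix Mouse430_2 arrays, so a value is the signal of a probe set and precision is limited by the number of arrays. A further single array held RNA pooled from 8 whole newborns, 4 male and 4 female, at postnatal day 0.5. The gd11, gd12 and gd14 samples are labelled as pools of 3, while the text on the study's design speaks of ovary pairs from individual animals. The gd11 samples numbered 18 and 19 shared a dam. At gd11, samples 16 and 18 are labelled as gonad together with mesonephros and sample 19 as gonad.

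Bcl2 family proteins act at the outer mitochondrial membrane. In a living cell the anti-apoptotic members bind and hold back Bax and Bak1, which otherwise form pores that release cytochrome c and start the caspase cascade. The pro-apoptotic members with only a BH3 domain, such as Bcl2l11 (Bim), Bbc3 (Puma), Pmaip1 (Noxa), Bid and Bad, respond to damage or to loss of growth factors and either occupy the anti-apoptotic members or activate the pore formers. In the fetal and newborn mouse ovary a large share of germ cells is lost while oocytes pass through meiotic prophase and become enclosed in follicles.

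Granulosa lineage markers stood above the median signal of all probe sets on every ovary array for at least 7 of 8 genes. Germ cell markers did so for 8 of 8 genes at gd14 and for 2 to 4 of 8 at gd11. One gd16 array, sample 7, read 45 for Xist, against at least 11306 on each of the other ovary arrays, while the Y-linked genes Kdm5d, Eif2s3y and Uty were low on all of them. The gd11 array of sample 16 read 7965 for the neuronal gene Stmn2, against 227 and 291 on the other gd11 arrays. Called differences between stages that rest on these arrays are given with and without them for the probe sets standing for members. Most other results, such as those of pathway genes, are given only with all arrays. The ratio of 3′ to 5′ Gapdh probe sets, a sign of how completely transcripts were copied, lay between 2.99 and 3.28 on gd11 arrays, 4.09 and 4.96 on gd14 arrays, and 5.07 and 5.41 on pnd2 arrays.

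Among the 9 genes with a probe set, 7 exceeded the low-signal filter, a stage mean above 116 (the median of all ovary values) in at least 1 stage, and entered the test. Bak1, which had its highest stage mean of 62.9 at gd18, and Bbc3, with its highest of 106 at gd11, did not. Pmaip1 exceeded it with a highest stage mean of 197.5 at gd16. Differences between stages are on the scale of log2(signal + 31.4) with standard errors, and a change was called at a Benjamini-Hochberg adjusted p under 0.05 in limma over 26465 probe sets. Depending on the comparison, the arrays of the stages compared did not overlap for 25.3% (gd12 against gd11) to 51.9% (pnd2 against gd11) of these probe sets.

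Over the 6 stages, 5 of the 7 tested members changed by the F test of any difference between stages, namely Bcl2l11, Mcl1, Bcl2, Bid and Bcl2l1. Over all probe sets, 62.7% were called by that test, so this count is close to the background. With each gene averaged over its probe sets, Bid (adjusted p = 0.161) and Bcl2l1 (0.651) lost this call and Bad (0.0328) gained it. The steps with called members were gd14 against gd12, where Bcl2l11 and Mcl1 fell, and gd16 against gd14, where the probe sets standing for both genes rose. Over all probe sets, 16.5% were called at the gd14 step and 7.04% were called lower. At the gd16 step 18.8% were called and 9.67% called higher. Bcl2l11 was lower at gd18 than at gd16 and was the only member of 7 called there, against 7.58% of all probe sets called and 3.00% called lower. Bcl2 was the only member called between pnd2 and gd18, where 13% of all probe sets were called and 6.41% called lower.

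Between gd12 and gd11 no member was called in limma, against 4.10% of all probe sets. Bcl2, Bid and Mcl1 had an unadjusted limma p under 0.05, a level at which the share of all probe sets was not counted. Array quality weights called Bid at this step, and median scaling or the mean of all probe sets called Mcl1. The median log2 difference of the 7 members was -0.18 at gd14 against gd12, beside -0.03 over all tested probe sets, and 0.40 at gd16 against gd14, beside 0.08. It was -0.22 at gd18 against gd16 and -0.14 at pnd2 against gd18, beside -0.04 and -0.06 over all tested probe sets. Adjacent comparisons share the arrays of the stage between them, so a low or high stage enters both. In whole ovary RNA, fewer cells of a type and less RNA per cell cannot be told apart.

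**Figure D1:**
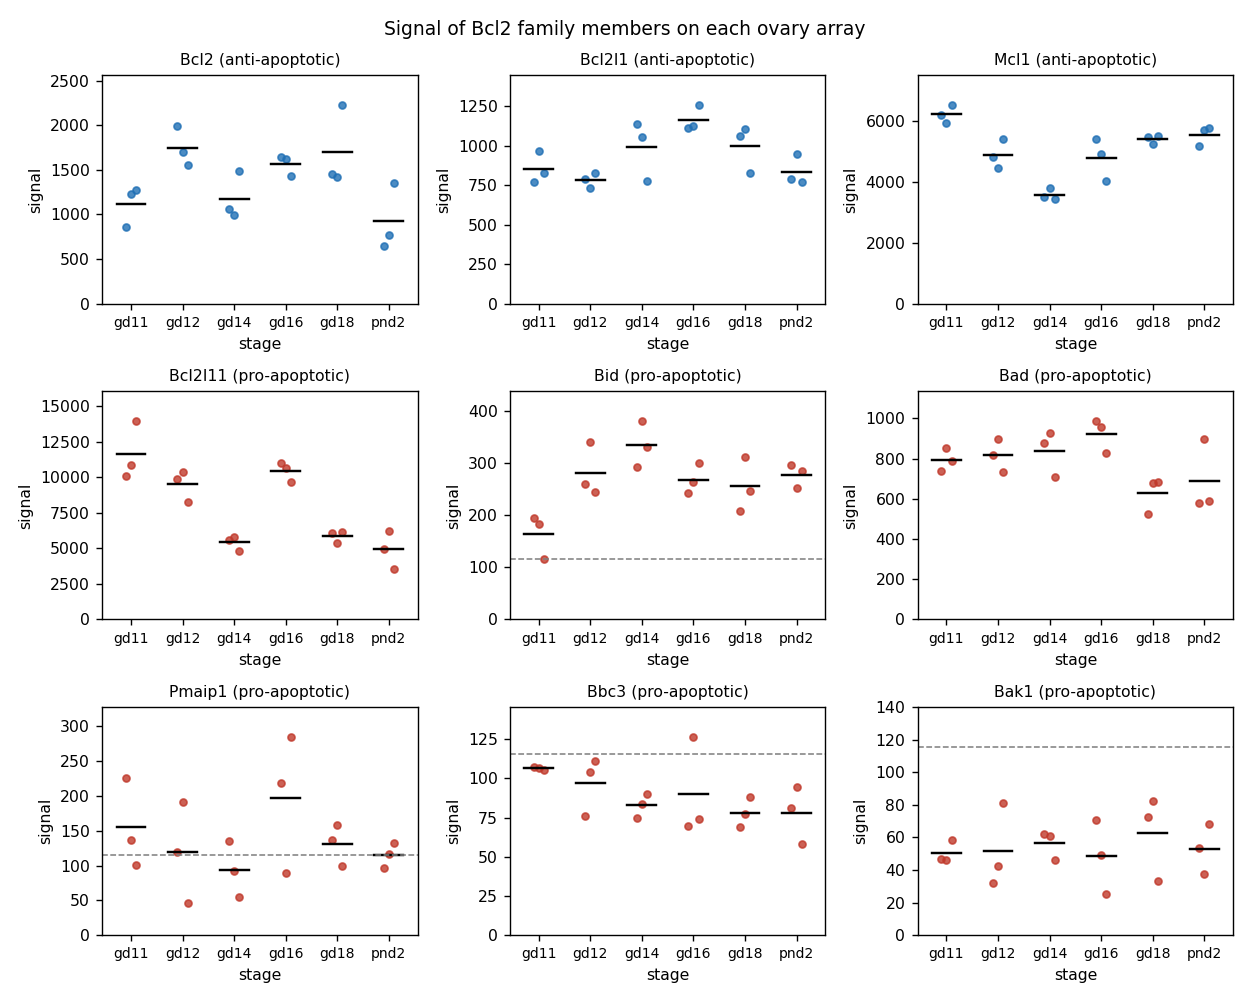
Signal (linear scale, vertical axis) of the probe set standing for each of 9 Bcl2 family genes on the 3 arrays of each stage (points), with the stage mean as a black bar. Anti-apoptotic genes are blue and pro-apoptotic genes red, and the dashed line marks the filter level of 116 in panels of low signal. The probe sets shown for Bcl2l11 and Mcl1 are low at gd14, and Bak1 lies under the line on every array.

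Promoter sequences are shown of 3 members called by the F test, so that their starts can be compared. For these 3 the probe set standing for the gene had a lower stage mean at gd14 than at both gd12 and gd16. Each window runs 5′ to 3′ in the direction of the gene, from 250 bases before to 50 bases after a RefSeq transcript start in GRCm38.p6. They lie at chr2:128125788-128126087 on the plus strand for Bcl2l11, at chr3:95658471-95658770 on the plus strand for Mcl1 and at chr1:106714241-106714540 on the minus strand for Bcl2. Capitals mark matches on either strand to the FoxO core GTAAACA and to the GC box GGGCGG, which do not overlap here.
Bcl2l11: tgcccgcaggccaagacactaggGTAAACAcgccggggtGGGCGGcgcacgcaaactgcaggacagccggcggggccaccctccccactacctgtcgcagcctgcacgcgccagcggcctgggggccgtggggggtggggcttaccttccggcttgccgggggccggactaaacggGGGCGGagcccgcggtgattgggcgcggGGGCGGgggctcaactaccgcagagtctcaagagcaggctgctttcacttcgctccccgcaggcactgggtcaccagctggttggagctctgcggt
Mcl1: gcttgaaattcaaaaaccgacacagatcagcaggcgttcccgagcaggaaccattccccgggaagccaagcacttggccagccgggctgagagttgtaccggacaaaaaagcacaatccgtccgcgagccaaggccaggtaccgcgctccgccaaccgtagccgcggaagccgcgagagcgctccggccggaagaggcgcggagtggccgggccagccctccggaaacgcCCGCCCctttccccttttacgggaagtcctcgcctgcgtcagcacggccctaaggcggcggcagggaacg
Bcl2: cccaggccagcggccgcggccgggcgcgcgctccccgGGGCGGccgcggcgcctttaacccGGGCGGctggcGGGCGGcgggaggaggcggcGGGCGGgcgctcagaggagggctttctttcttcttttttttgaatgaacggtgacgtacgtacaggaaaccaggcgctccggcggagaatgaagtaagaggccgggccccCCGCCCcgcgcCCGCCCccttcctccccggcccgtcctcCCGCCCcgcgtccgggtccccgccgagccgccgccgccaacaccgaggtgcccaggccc
The Bcl2l11 window printed, 1 of 2 listed for the gene, held 1 FoxO core, which starts at position -227 from the transcript start, and 3 GC boxes. The other, at chr2:128127325-128127624 on the plus strand, held no FoxO core and 3 GC boxes. The Mcl1 window held 1 GC box and the Bcl2 window 7, with no FoxO core in either. Of the 15 windows listed for 9 of the 10 members, 2 held the FoxO core and 10 the GC box. Among 32851 windows of this length over all genes, 3.65% held the FoxO core and 35.7% the GC box. A match describes the letters only and shows no binding.

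Bcl2, the founding anti-apoptotic member, was read by probe set 1440770_at. It had signals of 865, 1233 and 1269 at gd11, 1995, 1698 and 1549 at gd12, and 1057, 995 and 1483 at gd14. At the later stages it had 1641, 1619.6 and 1436 at gd16, 1457, 1417 and 2225 at gd18, and 641, 773 and 1349.6 at pnd2. All gd14 arrays lay below all gd12 arrays, and all pnd2 arrays below all gd18 arrays, where the highest pnd2 array came close to the lowest gd18 array. Over all tested probe sets, 36.2% had no overlap between gd14 and gd12 and 31.5% had none between pnd2 and gd18.

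Bcl2 fell at pnd2 against gd18 by a log2 difference of -0.90 ± 0.24 (SE, n = 3 each, limma adjusted p = 0.0169). The difference was no longer called without pnd2 sample 1 (-0.68, adjusted p = 0.111), pnd2 sample 2 (-0.81, 0.0662) or gd18 sample 6 (-0.69, 0.0995). Of its 5 tested probe sets all were below 0 at this step, and a second one, 1457687_at, was also called (-0.80, adjusted p = 0.0300). At gd14 against gd12 the 5 probe sets ranged from -0.63 to -0.46 and none was called, with -0.57 ± 0.24 for 1440770_at (adjusted p = 0.113), while their mean was called (-0.54, adjusted p = 0.0241). At gd16 against gd14 they ranged from 0.22 to 0.63, and 1422938_at was called (0.57, adjusted p = 0.0296), with 0.44 and an adjusted p of 0.124 without gd16 sample 7. Directions of all 5 at these 3 steps were the same under quantile normalization and median scaling.

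Mcl1 is a short-lived anti-apoptotic protein that oocytes of the mouse need to survive. It was read by probe set 1437527_x_at, whose suffix marks, in the maker's naming, probes that may match other transcripts. Its signals were 6203, 5955 and 6535 at gd11, 4812, 4464 and 5434 at gd12, and 3518, 3811 and 3446 at gd14. They were 5406, 4928 and 4043 at gd16, 5475, 5267 and 5506 at gd18, and 5175, 5718 and 5796 at pnd2. The gd14 arrays were the lowest of all 18 and overlapped no other stage. The share of all probe sets with a stage set apart in this way was not counted.

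Mcl1 fell at gd14 against gd12 by -0.44 ± 0.11 (SE, n = 3 each, limma adjusted p = 0.0111), a call lost without gd12 sample 15 (-0.37, adjusted p = 0.0723). All 6 of its probe sets were below 0 at this step and 3 were called. From gd14 the representative probe set was higher at gd16 by 0.40 ± 0.11 (adjusted p = 0.0183) and higher at gd18 by 0.59 ± 0.11 (adjusted p = 0.00184). The gd16 call was lost without gd16 sample 7, the array with low Xist (0.31, adjusted p = 0.0843), without gd16 sample 8 (0.38, 0.0549) and without gd14 sample 12 (0.38, 0.0671). At gd18 against gd14, 3 of its 6 probe sets were called higher, 4 were above 0 and 2 below, and the mean of all 6 was not called (0.25, adjusted p = 0.0631). Of all probe sets, 12.8% were called between gd18 and gd14 and 6.58% called higher at gd18, and Mcl1 was the only member of 7 called there.

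The 6 probe sets of Mcl1 went different ways at gd16. Probe set 1448503_at had signals of 3234, 2574 and 3963 at gd16, against 5216, 4554 and 4776 at gd14, and fell by -0.59 ± 0.14 (limma adjusted p = 0.00631; -0.60 and 0.0181 without gd16 sample 7). All 3 gd16 arrays lay below all gd14 arrays for 1448503_at, while for 1437527_x_at all 3 lay above. Another, 1456381_x_at, had 1633, 2051 and 1792 at gd16, against 2320.04, 2244 and 2193 at gd14, with an adjusted p of 0.0777. It then rose at gd18 against gd16 by 0.94 ± 0.12 (adjusted p = 0.000142).

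Averaged over its 6 probe sets, Mcl1 differed by -0.07 at gd16 against gd14 (adjusted p = 0.616), so a direction for the gene at this step cannot be given. The log2 difference between 1437527_x_at and 1448503_at, of which only the change between stages can be read, was 0.74, 0.93 and 0.03 on the gd16 arrays and -0.56, -0.26 and -0.47 on the gd14 arrays. That change of 0.99 had a two-sided exact permutation p of 0.1, the smallest that 3 arrays against 3 allow. Both probe sets separated these stages fully and in opposite directions, so this p was fixed beforehand and adds no evidence. The comparison was also chosen after the values were seen. Between pnd2 and gd11 the 6 probe sets ranged from -0.86 to -0.16. There 1448503_at (-0.86, adjusted p = 5.83e-05) and 1416881_at (-0.81, adjusted p = 0.000665) fell, and 1437527_x_at differed by -0.16 ± 0.11 (adjusted p = 0.261). The mean of all 6 was called (-0.43, adjusted p = 0.000702).

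**Figure D2:**
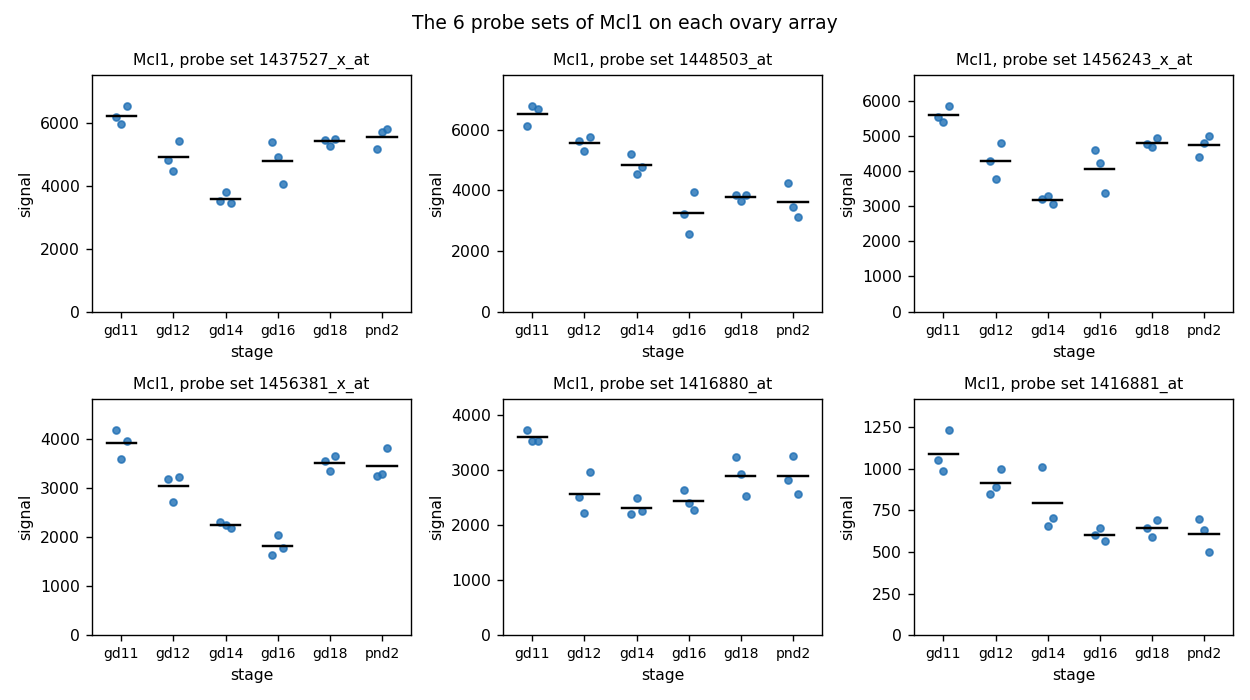
Signal (linear scale, vertical axis) of the 6 Mcl1 probe sets on the 3 arrays of each stage (points), with the stage mean as a black bar. At gd16 against gd14, 1437527_x_at and 1456243_x_at are higher, 1448503_at is lower, and 1456381_x_at is at its lowest stage mean. Levels of different probe sets are not comparable with each other.

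Bcl2l1 encodes Bcl-xL, an anti-apoptotic member that germ cells of the fetal mouse gonad depend on. Probe set 1420888_at read 773, 967 and 827 at gd11, 790.1, 735 and 831 at gd12, and 1139, 1056 and 776 at gd14. It read 1114, 1125 and 1258 at gd16, 1063, 1109 and 830.5 at gd18, and 792.5, 946 and 769 at pnd2. The gd16 arrays were above all gd18 arrays and overlapped those of gd14, and no difference between 2 stages was called. The F test gave an adjusted p of 0.0461, which missed the threshold in 19 of 28 alternatives, with 0.0743 without gd16 sample 7 and 0.0597 without gd11 sample 16. The other 3 Bcl2l1 probe sets stayed below the filter, with signals up to 101 on the ovary arrays.

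Bcl2l11 encodes Bim, a BH3-only protein that binds all the main anti-apoptotic members. Probe set 1456005_a_at, of a kind that covers several transcripts of a gene, had signals of 10117, 10869 and 13972 at gd11, 9888, 10365 and 8269 at gd12, and 5605, 5836 and 4829 at gd14. It had 11028, 10646 and 9699 at gd16, 6081, 5416 and 6123 at gd18, and 4969, 6249.5 and 3579 at pnd2. The arrays fell into a high range at gd11, gd12 and gd16 and a low range at gd14, gd18 and pnd2, with no overlap between the ranges. This split was made after the values were seen, and how often such a split holds over all probe sets was not counted.

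Bcl2l11 fell at gd14 against gd12 by -0.80 ± 0.16 (SE, n = 3 each, limma adjusted p = 0.00209). It rose at gd16 against gd14 by 0.95 ± 0.16 (adjusted p = 0.000637). It fell again at gd18 against gd16 by -0.83 ± 0.16 (adjusted p = 0.00416). Without gd16 sample 7 the last 2 steps were 0.91 (adjusted p = 0.00405) and -0.79 (adjusted p = 0.0217). Between gd18 and gd14 Bcl2l11 differed by 0.12 ± 0.16 (adjusted p = 0.707), with a 95% interval of -0.22 to 0.46.

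Over the whole span Bcl2l11 fell by -1.26 ± 0.16 at pnd2 against gd11 (limma adjusted p = 5.68e-06), and by -1.35 without gd11 sample 16 (adjusted p = 1.21e-05). It was 1 of 2 members called there, beside Bid, against 41.9% of all probe sets called, with 22.4% higher and 19.5% lower. A second probe set, 1435448_at, was lower at pnd2 than at gd11 by -1.23 (adjusted p = 1.87e-05) and lower at gd14 than at gd12 by -0.59 (adjusted p = 0.0282). Of its 4 tested probe sets all were below 0 in these 2 comparisons. At gd16 against gd14, 3 were above 0 and 1 below, 1456005_a_at alone was called, and the mean of the gene's probe sets was 0.43 (adjusted p = 0.0396). At gd18 against gd16, 3 were below 0 and 1 above, 1456005_a_at alone was called, and the mean of the gene's probe sets was not (-0.43, adjusted p = 0.0868).

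Markers of cell types moved over the same stages. The summed signal of 8 germ cell markers lay between 3270 and 11720 on gd12 arrays and between 40770 and 47840 on gd14 arrays. It lay between 14910 and 19870 on gd16 arrays and between 25060 and 39780 on gd18 arrays. The sum was highest at gd14, where the probe sets standing for Bcl2l11 and Mcl1 were low. Of the 6 Mcl1 probe sets, 3 were above 0 and 3 below at gd16 against gd14. Of these 8 markers, Stra8, which starts meiosis, averaged 68 at gd12, 2990 at gd14 and 70 at gd16. Sums of several somatic cell lists were higher on all gd16 arrays than on all gd14 arrays, as was the Bcl2l11 signal. The granulosa lineage sum was 37580 to 41830 at gd16 and 32370 to 33920 at gd14, and the stromal sum 51490 to 63170 at gd16 and 30320 to 42720 at gd14. The macrophage sum was 2915 to 4034 at gd16 and 1510 to 2746 at gd14, and the smooth muscle sum 7923 to 10770 at gd16 and 5696 to 7676 at gd14. A sum is weighted to its strongest genes. Amhr2 averaged 8436 at gd14 and 14870 at gd16, while Kitl, also of the granulosa list, averaged 13260 and 12290. Called higher at gd16 were 2 of 8 granulosa lineage, 3 of 7 stromal, 2 of 6 macrophage and 1 of 6 smooth muscle markers tested. None of these was called lower, beside 9.67% of all probe sets called higher. At gd18 the granulosa lineage sum was 28810 to 36030, below all gd16 arrays. The stromal (39310 to 60610), macrophage (2802 to 3674) and smooth muscle (7912 to 12630) sums at gd18 overlapped those at gd16. The mesonephros sum, 2934 to 3757 at gd14 and 4677 to 6728 at gd12, was lower at gd14, as Bcl2l11 and Mcl1 were. The granulosa lineage sum (15280 to 34610) and the stromal sum (33730 to 40060) at gd12 overlapped those at gd14. The erythroid sum lay between 33140 and 37210 on gd14 arrays, 6314 and 10200 on gd16 arrays, and 209 and 359 on pnd2 arrays. Within this list Hbb-y averaged 32750 at gd14 and 2508 at gd16, while Alas2 averaged 699 at gd14 and 2313 at gd16. Of the 6 tested erythroid markers, 3 were called higher and 1 lower at gd16 against gd14. At that step 18.8% of all probe sets were called. The part of these shifts in the members' changes was not tested.

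Bid links death receptors to mitochondria once caspase 8 has cut it. Probe set 1417045_at read 195, 182 and 116 at gd11, 260.3, 339.9 and 245 at gd12, and 292, 380.4 and 331 at gd14. It read 242, 263 and 299 at gd16, 208, 311 and 247 at gd18, and 295, 251 and 284 at pnd2. The gd11 arrays lay below all others, and the share of all probe sets for which this holds was not counted.

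Bid was higher at pnd2 than at gd11 by 0.68 ± 0.19 (SE, n = 3 each, limma adjusted p = 0.00875), and by 0.79 without gd11 sample 16 (adjusted p = 0.00698). Without gd11 sample 19, the lowest, the difference was 0.49 with an adjusted p of 0.0636. At gd12 against gd11 it was 0.69 ± 0.19 with an adjusted p of 0.0517, just outside the threshold. The summed neural markers were 419 to 559 at pnd2 and 2741 to 19200 at gd11, and the mesonephros markers 1585 to 2704 at pnd2 and 4349 to 4989 at gd11. Their part in the difference was not tested. The other 2 Bid probe sets stayed under 99 on every ovary array, and the mean of all 3 was not called at pnd2 against gd11 (0.47, adjusted p = 0.117).

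Bad, a BH3-only protein held inactive by growth factor signalling, was read by 1416582_a_at. It had stage means of 794 ± 57 at gd11, 817 ± 82 at gd12, 837.5 ± 115 at gd14, 924 ± 83 at gd16, 628.5 ± 90.1 at gd18 and 687 ± 181 at pnd2 (SD, n = 3 each). All gd18 arrays (524 to 683) were below all gd16 arrays (830.0 to 987), stages that did not overlap for 25.4% of all tested probe sets. The difference of -0.54 ± 0.17 was not called (limma adjusted p = 0.0633), and the F test gave 0.0784.

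Pmaip1, Bbc3 and Bak1 gave low signals. Pmaip1 (Noxa) had stage means of 155 ± 64 at gd11, 119 ± 73 at gd12, 94 ± 41 at gd14, 197.5 ± 99.6 at gd16, 131.5 ± 30.2 at gd18 and 116 ± 18 at pnd2 (SD, n = 3 each), with an F test adjusted p of 0.419. At gd16 its 3 arrays spread from 89 to 285, wider than the distance between the stage means. Bbc3 (Puma) read 58 to 95 at pnd2 and 106 to 107 at gd11, and Bak1, a pore former, read 25 to 83 over all ovary arrays. Neither was tested, and at these signals no order of stages can be read.

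**Figure D3:**
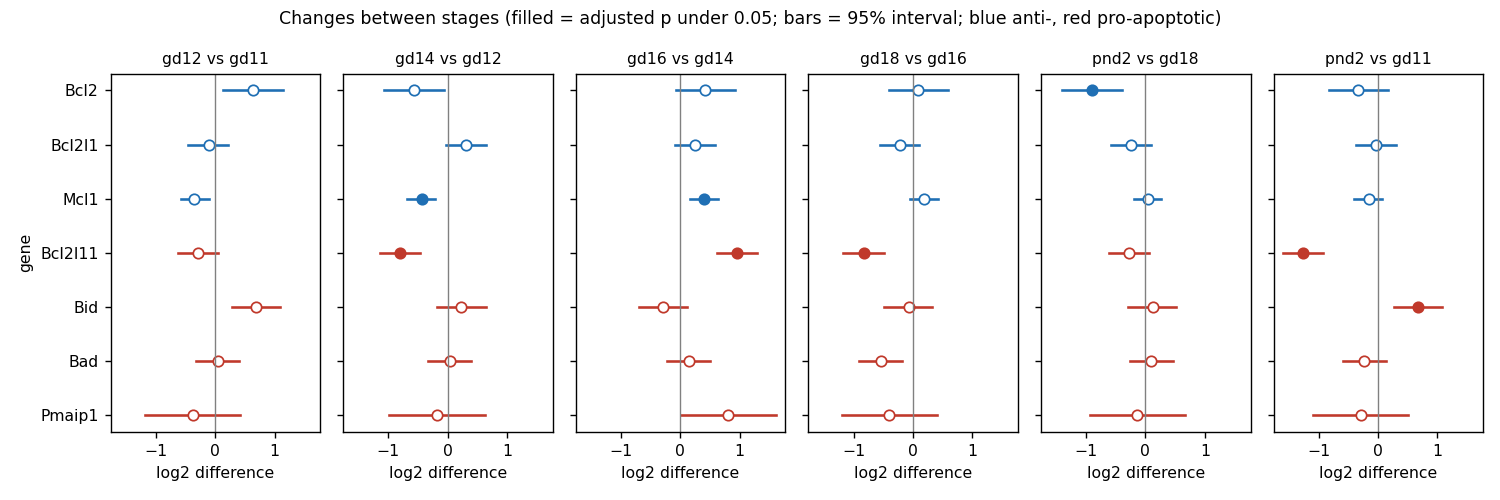
Differences between stages (log2 of signal + 31.4, later minus earlier stage, horizontal axis) for the 7 tested members, with 95% intervals as bars. Filled circles have a limma adjusted p under 0.05, blue marks anti-apoptotic and red pro-apoptotic genes. Bcl2l11 has filled circles in 4 of the 6 panels, falling at gd14, rising at gd16 and falling at gd18.

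Ordered from the highest to the lowest stage mean, Bcl2l11 ran gd11, gd16, gd12, gd18, gd14 and pnd2, and only gd12 and gd18 among these neighbours had arrays that did not overlap. Mcl1 (1437527_x_at) ran gd11, pnd2, gd18, gd12, gd16 and gd14, with no overlap between gd11 and pnd2 or between gd16 and gd14. Bid ran gd14, gd12, pnd2, gd16, gd18 and gd11, with no overlap between gd18 and gd11. Bcl2l1 ran gd16, gd18, gd14, gd11, pnd2 and gd12, with no overlap between gd16 and gd18. Every pair of neighbours overlapped for Bcl2, Bad, Pmaip1, Bbc3 and Bak1. Over all tested probe sets, 51.9% had no overlap between pnd2 and gd11, 34.8% between gd16 and gd14 and 25.4% between gd18 and gd16. The shares for gd12 with gd18 and for gd18 with gd11 were not counted.

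Each gene's log2 signal was centred on its mean over the ovary arrays and averaged within the 3 anti-apoptotic and 4 tested pro-apoptotic genes. The anti-apoptotic mean was -0.02 at gd11, 0.05 at gd12, -0.19 at gd14, 0.16 at gd16, 0.18 at gd18 and -0.19 at pnd2. The pro-apoptotic mean was 0.07 at gd11, 0.08 at gd12, -0.10 at gd14, 0.31 at gd16, -0.16 at gd18 and -0.21 at pnd2. At gd18 the arrays ranged from -0.25 to -0.03 for the pro-apoptotic and from 0.15 to 0.24 for the anti-apoptotic genes, the stage at which these array means lay apart. At the other stages the ranges overlapped. For Mcl1 the anti-apoptotic mean used 1437527_x_at, which averaged 5416 at gd18 and 5083 over the 18 ovary arrays. Its probe sets 1448503_at (3781 and 4599) and 1416881_at (641 and 775) were lower at gd18 than over all arrays, the others higher. The anti-apoptotic mean with other probe sets was not computed. Both means describe messenger RNA of unequal genes and carry no test.

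**Figure D4:**
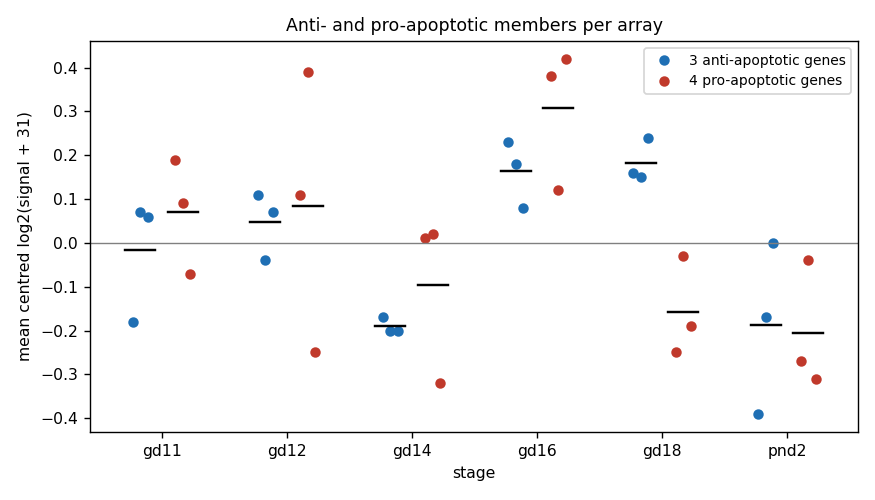
Mean centred log2(signal + 31.4) of 3 anti-apoptotic genes (blue) and 4 pro-apoptotic genes (red) on each ovary array, by stage, with the stage mean as a black bar. The points of the groups lie apart at gd18, with red from -0.25 to -0.03 and blue from 0.15 to 0.24. At the other stages their ranges overlap.

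The genes whose centred stage means were nearest to a member's were ranked by the root mean square difference over the 6 stages among 8560 genes with a called F test. For Bcl2l11 these were Fbxl7 (0.121), Cdk5r1 (0.150) and Kdm6b (0.151), and for Mcl1 Gnaq (0.063), Clasp1 (0.075) and Supt20 (0.086). For Bcl2 they were Marchf7 (0.065), Tfpi (0.074) and Vegfa (0.110). For Bid they were Dhtkd1 (0.061), Asah1 (0.093) and Pmm1 (0.097). Fbxl7, as an example, averaged 1618 at gd12, 960 at gd14 and 1611 at gd16.

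Other genes of the Bcl2 family included 8 tested of 15 listed, and 5 of them changed over the 6 stages, near the 62.7% of all probe sets called. Bcl2l10, an anti-apoptotic member known from mouse oocytes, had signals of 1492, 1337 and 636 at pnd2, against 148, 137.5 and 89 at gd18, and no more than 56.5 at any earlier stage. It rose at pnd2 against gd18 by 2.86 ± 0.39 (SE, n = 3 each, limma adjusted p = 9.08e-05), on a scale that understates the fold of low signals. Oocyte markers summed to 23350 to 32220 at pnd2, against 8774 to 16050 at gd18, and their part in this rise was not tested.

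Between pnd2 and gd11, 2 of the 8 rose and 2 fell, close to the 22.4% of all probe sets called higher and 19.5% called lower. Bcl2l10, among those that rose, passed the filter only through its gd18 and pnd2 means, so its call in this comparison supports nothing. Bmf, a BH3-only gene, fell by -1.21 ± 0.20 (limma adjusted p = 7.78e-05), with stage means of 569 ± 28 at pnd2 and 1384 ± 333 at gd11 (SD, n = 3 each). Bcl2l13 fell by -1.16 ± 0.17 (adjusted p = 2.12e-05). Bok, a Bax-like gene, had its highest mean of 666 ± 36 at pnd2 and its lowest of 423 ± 35 at gd18, with an F test adjusted p of 0.0191 that became 0.0503 without pnd2 sample 1.

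Upstream regulators had 12 tested genes, of which 9 changed over the stages, against 62.7% of all probe sets. At pnd2 against gd11, 7 rose and none fell, beside 22.4% of all probe sets called higher and 19.5% lower. Their median difference was 0.75, beside 0.01 over all tested probe sets. The list was chosen with earlier results of these data known, so this count and median cannot test for an excess. Trp63, among the 7, passed the filter only through its gd18 and pnd2 means, so its call at pnd2 against gd11 supports nothing. Trp63, whose TAp63 product induces Bbc3 and Pmaip1 in damaged mouse oocytes, had signals of 6008, 4946 and 5447 at pnd2, against 1504, 1247 and 702 at gd18. It rose at pnd2 against gd18 by 2.28 ± 0.26 (limma adjusted p = 1.50e-05), while Bbc3 and Pmaip1 had low signals at both stages.

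Atm and Atr, kinases that respond to DNA breaks, peaked at gd14. Atm averaged 4646 ± 726 at gd14 and 1868 ± 546 at gd12 (SD, n = 3 each), a rise of 1.33 ± 0.22 (limma adjusted p = 0.000399), and then fell at gd16 by -1.14 ± 0.22 (adjusted p = 0.00179). Atr rose at gd14 against gd12 by 2.44 ± 0.21 (adjusted p = 1.50e-07). Foxo3, a factor that holds primordial follicles dormant, was higher at pnd2 than at gd11 by 1.38 ± 0.18 (adjusted p = 7.00e-06).

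**Figure D5:**
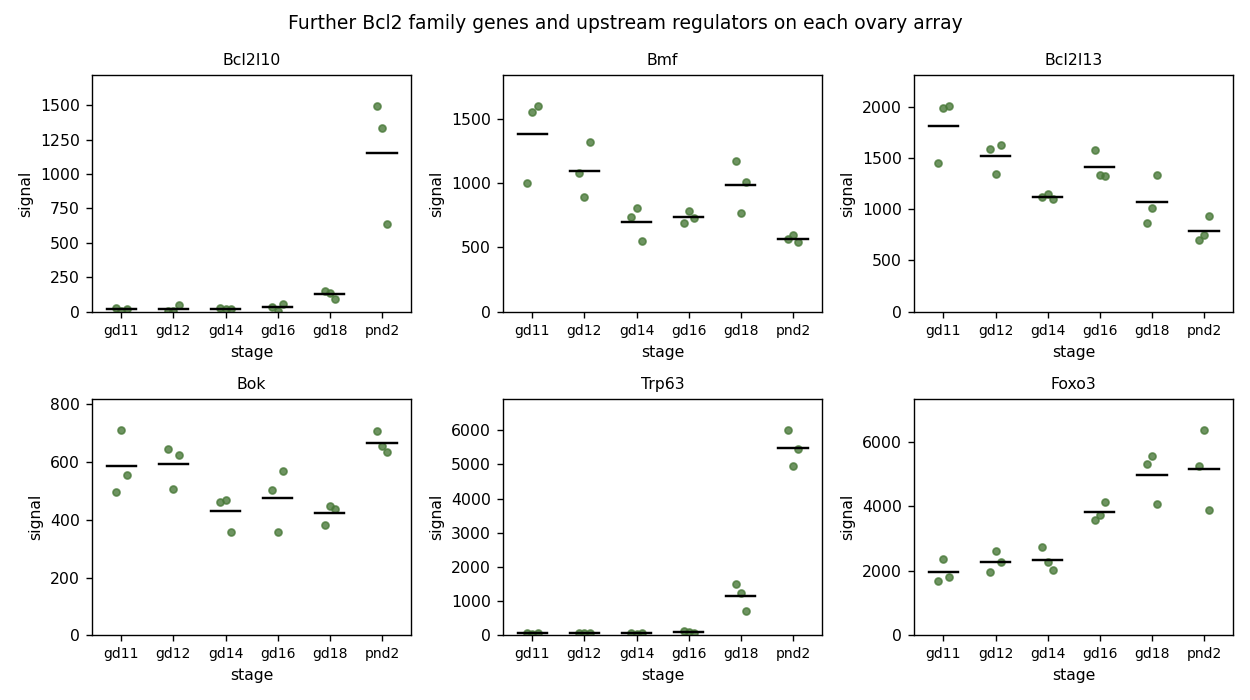
Signal (linear scale, vertical axis) of 4 further Bcl2 family genes and of the regulators Trp63 and Foxo3 on the 3 arrays of each stage (points), with the stage mean as a black bar. Bcl2l10 and Trp63 are highest at pnd2, where Trp63 averages 5467. Bmf and Bcl2l13 have their lowest stage means at pnd2.

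Downstream of the mitochondrion, 10 of 12 tested apoptosome and caspase genes changed over the stages, against 62.7% of all probe sets. At pnd2 against gd11, 2 were higher and 4 lower, beside 22.4% and 19.5% of all probe sets. Cycs (cytochrome c), which nucleates the apoptosome, fell at gd16 against gd14 by -0.79 ± 0.13 (limma adjusted p = 0.000363) and at pnd2 against gd11 by -0.94 ± 0.13 (adjusted p = 9.17e-06). Endog, a mitochondrial nuclease, averaged 358 ± 5.6 at gd14 and 173.5 ± 35.4 at gd12 (SD, n = 3 each), a rise of 0.94 ± 0.17 (adjusted p = 0.000958). Htra2, a protease that cleaves inhibitors of apoptosis, fell at pnd2 against gd11 by -0.77 ± 0.17 (adjusted p = 0.00142). Diablo, which displaces those inhibitors, had its highest stage mean of 3356 ± 734 at gd18 and an F test adjusted p of 0.000233.

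Among 6 tested caspase inhibitors 4 changed over the stages, near the 62.7% of all probe sets, and 1 rose and none fell at pnd2 against gd11, where 22.4% of all were called higher and 19.5% lower. The one that rose was Birc3, by 2.05 ± 0.20 (limma adjusted p = 2.45e-07), and it also rose at pnd2 against gd18 by 0.95 ± 0.20 (adjusted p = 0.00428). Birc2 had its highest stage mean of 2442 ± 216 at gd14 (SD, n = 3, F test adjusted p = 0.000531). No difference was called between gd14 and gd12, gd16 or gd18 (limma adjusted p = 0.2, 0.404 and 0.68). The gd11 and pnd2 means were the lowest, at 1453 and 1626. Birc5, also a mitotic gene, had 0.0238 in the F test and lost that call without pnd2 sample 1 or pnd2 sample 3, with up to 0.108. Cflar, a decoy of caspase 8, had 0.00837 and 0.131 under median scaling.

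Death receptor genes had 4 tested, of which 3 changed over the stages, against 62.7% of all probe sets, and those 3 were called higher at pnd2 than at gd11, beside 22.4% of all. The adaptor gene Fadd rose by 0.99 ± 0.22 (limma adjusted p = 0.00133) and the receptor gene Tnfrsf1a by 0.76 ± 0.18 (0.00205). The third, the ligand gene Tnfsf10, entered the test only through its pnd2 mean, so its call supports nothing. It read 133, 158 and 102 at pnd2, against 32, 13 and 23 at gd11. Of 9 tested genes for channels and partners of the mitochondrial membranes, 8 changed, against 62.7% of all probe sets, with 1 higher and 4 lower at pnd2 than at gd11, beside 22.4% and 19.5% of all. Mtch2, a receptor for truncated Bid, fell by -1.14 ± 0.18 (adjusted p = 4.67e-05), and the channel gene Vdac1 by -0.55 ± 0.13 (adjusted p = 0.00264). The carrier gene Slc25a5 fell by -0.61 ± 0.14 (adjusted p = 0.00129). Opa1, which shapes the inner membrane, had its lowest stage mean of 2578 ± 455 at gd14 (SD, n = 3; F test adjusted p = 0.00483).

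Bad, Bak1, Bbc3, Bcl2, Bcl2l1 and Bcl2l11 had pnd2 ovary values on both sides of the value on the single array of whole newborns. How often this holds over all probe sets was not counted. Bid read 251 to 295 in pnd2 ovaries and 208 in the newborn pool. Mcl1 read 5175 to 5796 in pnd2 ovaries and 6417 in the pool, and Pmaip1 97 to 133 in pnd2 ovaries and 259 in the pool. The newborn pool has 1 array, so these differences have no replicate check.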

How the data were processed

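RNA from ovaries at 6 stages was measured on 18 Affymetrix Mouse430_2 arrays, with 1 array of whole newborns. The authors deposited 1 signal intensity per probe set and array, on a linear scale, processed with GCOS per the submitters' processing notes; the version and settings are not given in the sources used. After 64 control probe sets were left out, each array had a mean signal near 497 once the highest and lowest 2% of values were trimmed, so the values were used as scaled by the authors. Present or absent calls were not used here.

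The added constant of 31.43 was the 25th percentile of all ovary values, and the filter of 115.78 their median. Tests between stages used limma 3.58.1 under R 4.3.3 (lmFit and eBayes with a mean-variance trend, two-sided) on all 18 ovary arrays, with p-values adjusted over all 26465 tested probe sets; the newborn array entered no test. The code was tested on simulated data. With labels unclear on whether samples pool animals, p-values measure the spread between these samples, which may be partly technical.

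Genes were named through the platform annotation: 34945 probe sets had 1 symbol and 932 several, and those with several named no gene. The members and gene lists were chosen with earlier results of these data known. All members are named; of each pathway list up to 4 genes called by the F test with the largest range of stage means; and, as genes most like a member, 3 for each of the 4 members with the largest range among those called by the F test. Alternatives covered the constant, the scaling, the filter, the arrays fitted, the trend, array weights, the shared dam, the choice of probe set and leaving out each array. Promoter windows came from RefSeq (GRCm38.p6).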

Additional observations from a re-analysis of the deposited data

How the results depend on the processing

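No paired analysis was possible because the samples carry unique numbers and the stages share no replicate number. Of 399 recomputed values of the 14 called member results, 363 kept their direction and their side of the threshold, 35 lost the call and 1 reversed, the Mcl1 difference at gd16 against gd14, which was -0.07 (adjusted p = 0.616) as the mean of all its probe sets. Of 1202 values of 42 uncalled results 21 became called. In all 25 values changed sign, 24 of them uncalled in both fits. Among the counts of called members, the following moved. At gd12 against gd11 (0 of 7) median scaling, array quality weights and the mean of all probe sets each gave 1. At gd16 against gd14 (2) median scaling and a fit of only the arrays compared gave 1. The filter at the 75th percentile gave 2 at gd18 against gd16 (1) and 1 at pnd2 against gd11 (2). A fit of only the arrays compared gave 0 at pnd2 against gd18 (1), and array quality weights gave 2 at gd18 against gd14 (1). At gd14 against gd12 Bcl2 was also called in 3 settings. These were only the arrays compared, array quality weights and the mean of all probe sets (limma adjusted p = 0.049, 0.0325 and 0.0241). Median scaling also called Mcl1 at pnd2 against gd11 (0.0232), and array quality weights also called Bcl2 there (0.0337). With 1 array left out at a time, the counts ranged from 0 to 1 at gd12 against gd11, 1 to 2 at gd14 against gd12, 1 to 2 at gd16 against gd14, 1 to 2 at gd18 against gd16, 0 to 1 at pnd2 against gd18, 1 to 3 at pnd2 against gd11, 1 to 1 at gd18 against gd14 and 3 to 6 over all stages. Bid lost its call at pnd2 against gd11 as the mean of its probe sets (0.47, adjusted p = 0.117). Bcl2l11 lost its call at gd18 against gd16 in the same way (-0.43, 0.0868), as did Mcl1 at gd18 against gd14 (0.25, 0.0631). The cause was not tested. Probe sets called between gd12 and gd11 numbered 1085, and ranged from 339 without gd12 sample 14 to 1550 with array weights. Median scaling moved the median of all probe sets at pnd2 against gd11 to -0.13, beside 0.01, and at gd16 against gd14 to -0.09, beside 0.08. Over the alternatives, called genes at any stage numbered 4 to 6 for other Bcl2 family genes, 8 to 11 for the apoptosome and caspases, 3 to 4 for caspase inhibitors, 8 to 11 for upstream regulators, 1 to 4 for death receptors and 7 to 8 for mitochondrial partners. Bak1, Bbc3 and Pmaip1 lie at signals where 3 arrays a stage resolve little.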
